A study of Mus musculus with 24 samples.

Results

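The Btg, Zfp36 and Gadd45 families act on growth arrest and mRNA decay, and their 8 genes were followed across 4 groups of interscapular brown adipose tissue (iBAT) libraries: Btg1 and Btg2, Zfp36, Zfp36l1 and Zfp36l2, and Gadd45a, Gadd45b and Gadd45g. They were taken by name, with earlier results of these data known, and are 8 of the 36144 genes in the count table. All 8 were among the 13129 genes with enough reads to be tested (edgeR's expression filter by group). iBAT is a thermogenic fat depot of the upper back. The 24 mice were 6 to 8 months old, and every group of 6 held 3 males and 3 females. Th-Cre mice (genotype given as B6.129X1- Tht1(cre)Te/Kieg) received DCZ in 1 group and saline in another, and WT mice (C57Bl/6J) likewise received DCZ or saline, and tissue was taken after 30 min. Cre recombinase in Th-Cre mice is placed under tyrosine hydroxylase regulatory sequence, which is active where catecholamines are made, sympathetic neurons among them. DCZ (deschloroclozapine) is an agonist of muscarinic designer receptors. Which designer receptor was used, how it was delivered and at what dose DCZ was given was not given in the sources used.

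BTG proteins bind the CCR4-NOT deadenylase and so speed the shortening of poly(A) tails, and they restrain cell division. ZFP36 (tristetraprolin), ZFP36L1 and ZFP36L2 are zinc finger proteins that bind AU-rich elements in the 3′ untranslated region of short-lived mRNAs and recruit the same deadenylase, which destabilises transcripts of many cytokines and early response factors. GADD45 proteins are small stress-inducible partners of the kinase MAP3K4, of PCNA and of CDK1, and Gadd45g is known in brown adipocytes as a gene induced by cold and adrenergic signalling. Btg2 and Zfp36 are also classed as immediate early genes, which are transcribed within minutes of a stimulus without new protein synthesis.

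The start regions of the 4 members with the largest log2 fold changes after DCZ in Th-Cre mice are shown first, because 2 of them carry elements known from stimulus-responsive promoters. The part of these elements in the changes was not tested. RefSeq promoters (GRCm38.p6) were found for 7 of the 8 members. Each line gives the 250 bases before the RefSeq transcription start, 5′ to 3′ on the strand of the gene. Capitals mark matches to a cAMP response element (CRE, TGACGTCA), a CArG box or a TATA box (TATAAA), searched on both strands.
Btg2 (chr1:134079156-134079405, minus strand): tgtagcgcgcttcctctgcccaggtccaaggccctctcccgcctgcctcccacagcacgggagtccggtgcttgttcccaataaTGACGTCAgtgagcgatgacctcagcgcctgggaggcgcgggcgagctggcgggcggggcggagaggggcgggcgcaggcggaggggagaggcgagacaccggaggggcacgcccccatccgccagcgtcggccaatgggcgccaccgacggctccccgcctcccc
Zfp36 (chr7:28379229-28379478, minus strand): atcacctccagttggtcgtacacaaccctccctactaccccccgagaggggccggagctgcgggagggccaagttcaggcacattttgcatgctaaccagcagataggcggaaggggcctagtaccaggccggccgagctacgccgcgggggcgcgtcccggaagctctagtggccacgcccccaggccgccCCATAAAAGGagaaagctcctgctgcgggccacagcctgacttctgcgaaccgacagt
Gadd45b (chr10:80929841-80930090, plus strand): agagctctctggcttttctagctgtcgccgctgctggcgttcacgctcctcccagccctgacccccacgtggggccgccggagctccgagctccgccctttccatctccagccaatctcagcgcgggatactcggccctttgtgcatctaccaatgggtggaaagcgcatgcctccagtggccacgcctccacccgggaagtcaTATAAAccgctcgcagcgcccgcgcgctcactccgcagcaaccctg
Gadd45g (chr13:51846425-51846674, plus strand): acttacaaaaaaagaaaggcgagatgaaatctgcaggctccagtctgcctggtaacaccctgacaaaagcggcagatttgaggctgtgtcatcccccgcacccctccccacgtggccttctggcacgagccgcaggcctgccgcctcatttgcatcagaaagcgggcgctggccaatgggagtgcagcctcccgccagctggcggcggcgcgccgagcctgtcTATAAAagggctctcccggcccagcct
The Btg2 region held a full CRE that begins 166 bases before the start, and 1.79% of 32851 promoters of the same length (300 bases, of which 50 lie after the start) held one. A CArG box, the element bound by serum response factor, began 58 bases before the start of Zfp36 and was present in 1.63% of promoters. The TATA box of Gadd45b began 46 and that of Gadd45g 27 bases before the start, and TATAAA was present in 13.6% of promoters. Outside the 4 regions shown, Btg1 and Zfp36l1 also held TATAAA, and Btg1 held TGACG, the first 5 letters of the CRE and therefore also part of the Btg2 match, as did 20.8% of promoters. The E box CACGTG occurred in Gadd45b and Gadd45g (7.15% of promoters), and TGANTCA, the AP-1 motif, in Zfp36l1 alone (7.81%). GGGCGG occurred in 5 of the 7 members (35.7%) and CCAAT in 6 (37.4%). In GENCODE M21 a longer Zfp36 transcript begins further upstream, so the Zfp36 region shown lies inside that gene's annotated span. The end of the Gadd45b region shown also lies inside its gene, which begins at chr10:80930073 in GENCODE M21. The distances above therefore hold for the RefSeq starts only.

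The members also differ in AU-rich elements of their own 3′ untranslated regions, the element that ZFP36 proteins bind. For each member the GENCODE M21 coding transcript with the longest 3′ untranslated region was read, and 1 copy of the heptamer TATTTAT is shown in capitals with 10 bases on either side for each member that had one.
Btg2 (chr1:134077250-134077276, minus strand): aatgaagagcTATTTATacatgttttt
Zfp36 (chr7:28376952-28376978, minus strand): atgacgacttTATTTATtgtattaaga
Zfp36l1 (chr12:80108168-80108194, minus strand): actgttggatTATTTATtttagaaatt
Zfp36l2 (chr17:84184915-84184941, minus strand): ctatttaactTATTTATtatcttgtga
Gadd45a (chr6:67035138-67035164, minus strand): tgtgaaaggtTATTTATgataaagttt
Each of the 3 Zfp36 genes held 3 copies of the heptamer and 1 copy of the nonamer TTATTTATT, which contains it. Among 3′ untranslated regions within 20% of the same length, the nonamer was present in 4.04% for Zfp36, 9.91% for Zfp36l1 and 9.92% for Zfp36l2. At least 1 heptamer was present in 19.5%, 38.1% and 38% of these regions, in the same order. Btg2 and Gadd45a held 1 heptamer each, in 42.7% and 14.6% of regions of like length. Btg1, whose region is the longest at 4166 bases, had 11 copies of the core pentamer ATTTA and no heptamer. Of regions of its length 98.2% held the pentamer and 60.6% the heptamer. Gadd45b and Gadd45g had neither. Of regions of their lengths 54.6% and 49.6% held the pentamer and 14.4% and 12.3% the heptamer.

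The members span 8 autosomal loci on GRCm38 (GENCODE M21). Btg1 (ENSMUSG00000036478.8) lies at chr10:96617006-96622809 and Btg2 (ENSMUSG00000020423.6) at chr1:134075170-134079120. Zfp36 (ENSMUSG00000044786.6) lies at chr7:28376784-28380253, Zfp36l1 (ENSMUSG00000021127.7) at chr12:80107754-80113013 and Zfp36l2 (ENSMUSG00000045817.8) at chr17:84183931-84187947. Gadd45a (ENSMUSG00000036390.8) lies at chr6:67035096-67037457, Gadd45b (ENSMUSG00000015312.9) at chr10:80930073-80932204 and Gadd45g (ENSMUSG00000021453.2) at chr13:51846678-51848468. A noncoding gene overlaps Zfp36 (Gm44710), Zfp36l1 (Gm26669), Zfp36l2 (AC132455.1) and Gadd45a (E230016M11Rik) on the other strand. Whether the counting used strand was not given in the sources used, and reads of these 4 members could include reads of the overlapping gene.

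Total estimated counts were 11.9 to 22.9 M per library. All 10 brown adipocyte markers examined had reads in every group, with summed levels of 11882 to 14388 CPM (reads scaled to the same effective library total) in Th-Cre libraries and 14341 to 17962 CPM in WT libraries. The 6 sympathetic neuron markers summed to at most 0.347 CPM in any library, and none passed the filter on low counts. The 13 skeletal muscle markers summed to between 1.12 and 1471 CPM. The libraries that stood apart were 6, with a mean log2 CPM of these markers above 1: Th-Cre DCZ mice DN2075 and DN2091, Th-Cre saline mice DN2086, DN2087 and DN2094, and WT saline mouse 12. Lymphocyte markers summed to medians of 25.5 CPM in Th-Cre DCZ, 20.9 CPM in Th-Cre saline, 6.76 CPM in WT DCZ and 10.3 CPM in WT saline libraries. Endothelial markers summed to medians of 554 CPM in Th-Cre DCZ, 542 CPM in Th-Cre saline, 666 CPM in WT DCZ and 761 CPM in WT saline libraries, and smooth muscle and pericyte markers to 452, 437, 504 and 558 CPM in the same order. The part of muscle, lymphocytes or other cells in the results below was not tested beyond the values without the 6 libraries. In whole tissue, fewer cells of a type and less RNA per cell cannot be told apart. Library numbers 1 to 12 were WT and 13 to 24 Th-Cre, so genotype and library order cannot be told apart, and within WT 5 of the 6 lower numbers were DCZ and 5 of the 6 upper ones saline.

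Per kilobase of merged exon, the mean level over the 24 libraries was highest for Zfp36l2, at 61.0 ± 15 CPM per kb (SD, n = 24). Gadd45g followed at 47.3 ± 22.5, Btg2 at 32.9 ± 20.4, Zfp36 at 18.9 ± 11.9, Zfp36l1 at 17 ± 3.02 and Btg1 at 16.8 ± 1.90 CPM per kb. Gadd45b and Gadd45a were far below, at 1.41 ± 0.878 and 1.39 ± 0.593 CPM per kb. Neighbours in this order differed by less than their pooled SD, except that Btg1 and Gadd45b differed by 15.4 CPM per kb against a pooled SD of 1.48. The merged exons of Zfp36 (3470 bases) fill its whole annotated span. Its divisor may therefore exceed the length of the mRNA counted, and its level per kb and its place in the order may be too low. Gadd45a and Gadd45b rested on 18 to 85 and 5 to 84 reads per library, which limits the precision of each of their values. The other 6 members had 300 or more reads in every library.

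The members differed in how far they varied from library to library. Btg1 and Zfp36l1 kept nearly the same level in every library, with a range over all 24 libraries of 1.41-fold and 1.74-fold. Zfp36l2 ranged 2.56-fold. Btg2 ranged 7.21-fold, Zfp36 7.06-fold, Gadd45g 6.78-fold, Gadd45a 6.16-fold and Gadd45b 15.5-fold.

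**Figure D1:**
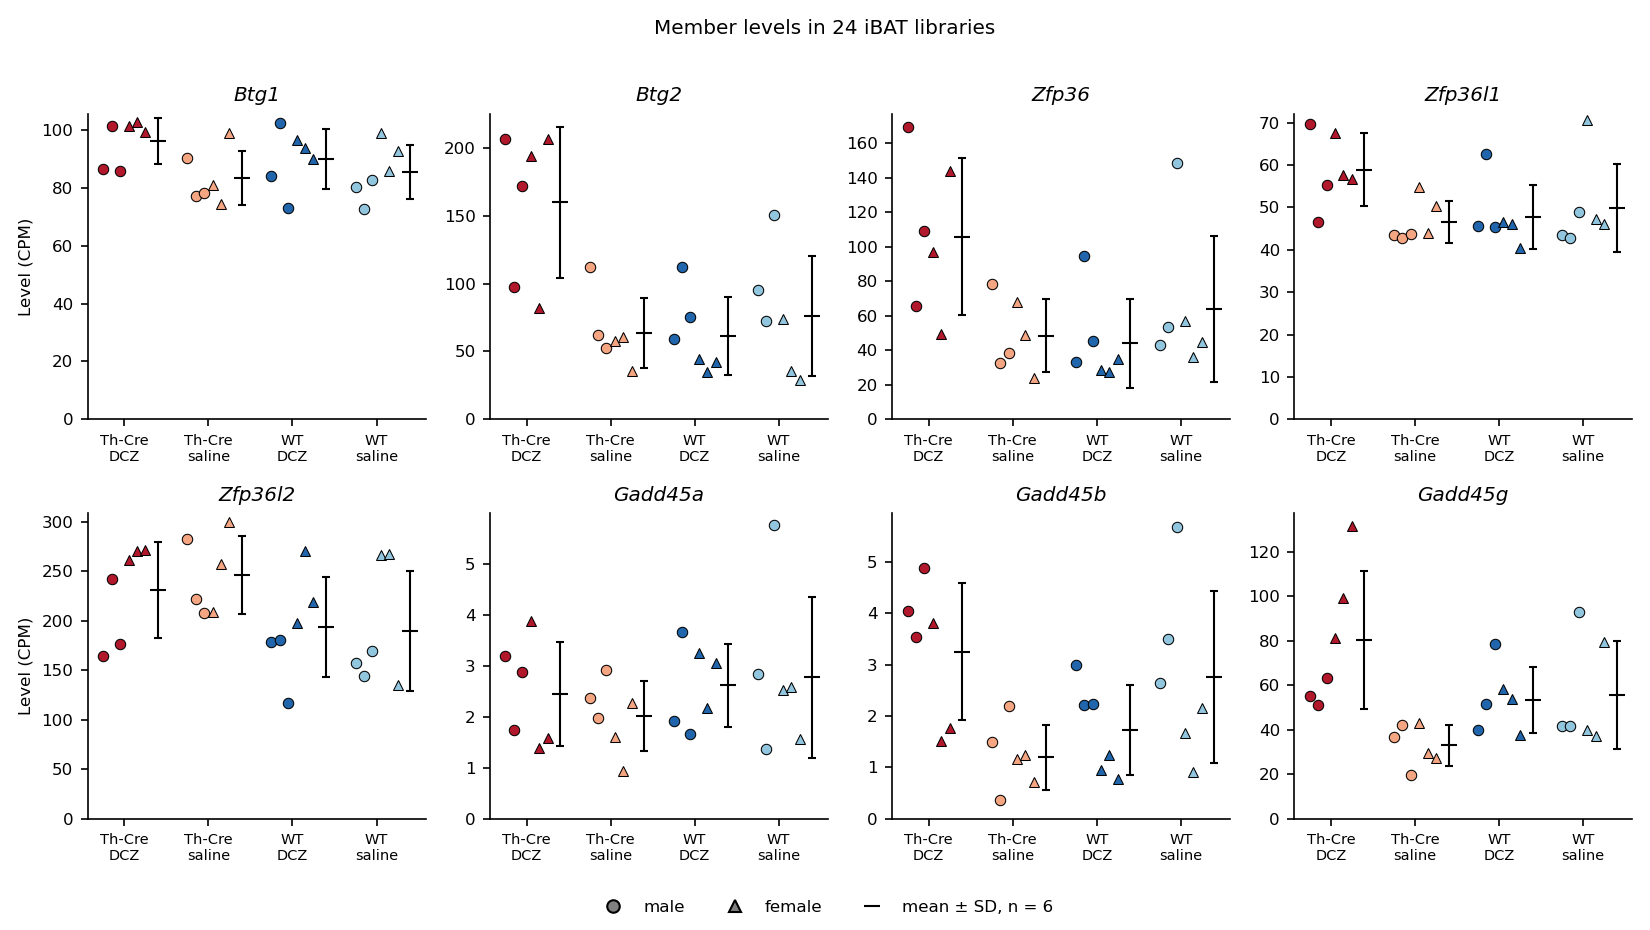
Level of each member (CPM on effective library sizes, linear axis from 0) in the 24 libraries by group, circles for males and triangles for females, with the group mean ± SD (n = 6). Btg2 and Gadd45g stand highest in the Th-Cre DCZ group, and the single high circle in WT saline for Zfp36, Gadd45a and Gadd45b is the same mouse.

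The first comparison asks what changed in iBAT 30 min after DCZ in mice that carry Cre. None of the 8 members passed the test (edgeR quasi-likelihood, Benjamini-Hochberg adjusted p under 0.05 over 13129 genes), in a comparison that called 0.0229% of all genes (3 genes). At an unadjusted p under 0.05, 6 of the 8 members were higher, against 3.54% of all genes. DESeq2, which called 40 genes in all, called 3 members: Gadd45b (adjusted p = 0.00923), Gadd45g (adjusted p = 0.00935) and Btg2 (adjusted p = 0.0114). The edgeR fit with no filter on low counts called Btg2 and Gadd45g. No member was called by limma-voom, and 6 of 10 other settings, limma-voom among them, called 0 members. Log2 fold changes were above 0 for 7 of the 8 members, against 50.2% of all genes. Because the members were chosen with earlier results of these data known, these counts are descriptions and not tests.

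Btg2, an antiproliferative protein that links deadenylase to its targets, had 82.2 to 207 CPM (median 183) in Th-Cre DCZ libraries, against 35.8 to 112 CPM (median 59.1) in Th-Cre saline libraries. Above every saline library lay 4 of the 6 DCZ libraries, and the DCZ mice DN2205 and DN2091, at 82.2 and 97.1 CPM, lay within the saline range. The log2 fold change was 1.40 ± 0.297 (SE), or 2.63-fold, with an adjusted p of 0.0874 (rank 12 of 13129 genes). Without DCZ mouse DN2091 the value was 1.55, with an adjusted p of 0.0246, and without the 6 muscle-bearing libraries it was 1.94, with an adjusted p of 0.0375. The latter setting drops Th-Cre DCZ mice DN2075 (194 CPM) and DN2091 (97.1 CPM). It also drops Th-Cre saline mice DN2086 (57.5 CPM), DN2094 (60.6 CPM) and DN2087 (112 CPM), the highest saline library. Over all single libraries left out the log2 fold change ran from 1.20 (without DN2207) to 1.55, with adjusted p from 0.0246 to 0.281, and in males only it was 1.06, with an adjusted p of 0.606. Its close relative Btg1 showed 86.0 to 103 CPM (median 100.5) in Th-Cre DCZ libraries and 74.6 to 99.0 CPM (median 79.8) in Th-Cre saline libraries. All 6 DCZ libraries were above the saline mean of 83.5 CPM, but the log2 fold change was only 0.20 ± 0.0795 (adjusted p = 0.726).

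Zfp36, the founding member of the AU-rich element binders, had 49.5 to 169 CPM (median 103) in Th-Cre DCZ libraries, against 24 to 78.3 CPM (median 43.7) in Th-Cre saline libraries. Above every saline library lay 4 DCZ libraries, and the 2 lowest were again DN2205 and DN2091. The log2 fold change was 1.12 ± 0.345 (adjusted p = 0.461). Zfp36l1, a paralogue that also acts in B and T lymphocyte development in mice, had 46.5 to 69.7 CPM (median 57.2) in Th-Cre DCZ libraries, against 42.7 to 54.9 CPM (median 43.8) in Th-Cre saline libraries. All DCZ libraries but DN2091 lay above every saline library, 5 of 6, although the log2 fold change was small at 0.34 ± 0.118 (adjusted p = 0.589). Zfp36l2, the most abundant of the 3, had 164 to 271 CPM (median 252) in Th-Cre DCZ libraries and 208 to 299 CPM (median 239.8) in Th-Cre saline libraries. These groups overlapped widely, with a log2 fold change of -0.12 ± 0.152 (adjusted p = 0.999).

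Gadd45g had 51.2 to 132 CPM (median 72.1) in Th-Cre DCZ libraries, against 19.4 to 43.0 CPM (median 33.0) in Th-Cre saline libraries. It was the 1 member of 8 whose groups did not overlap, a separation in this direction seen in 0.206% of all genes. Gadd45g and Zfp36l1 were the 2 members with at least 5 of 6 DCZ libraries above every saline library, as were 1.16% of all genes. The log2 fold change was 1.27 ± 0.265, or 2.41-fold, with an adjusted p of 0.0814 (rank 10). Without DN2091 it was 1.37 with an adjusted p of 0.0361, and in a fit of the 12 Th-Cre libraries alone the adjusted p was 0.0396. Over all single libraries left out it ran from 1.09 (without DN2207) to 1.37, with adjusted p from 0.0361 to 0.239, and in males only it was 0.79, with an adjusted p of 0.773.

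Gadd45b, a stress and p38 pathway regulator, had 1.5 to 4.87 CPM (median 3.67) in Th-Cre DCZ libraries, against 0.366 to 2.20 CPM (median 1.20) in Th-Cre saline libraries. The DCZ males and 1 female, 4 libraries in all, lay above every saline library. The log2 fold change was 1.39 ± 0.321, or 2.61-fold, with an adjusted p of 0.136 (rank 22). Gadd45a, the p53-responsive member, had 1.39 to 3.88 CPM (median 2.31) in Th-Cre DCZ libraries and 0.934 to 2.91 CPM (median 2.12) in Th-Cre saline libraries. Its groups overlapped, with a log2 fold change of 0.28 ± 0.326 (adjusted p = 0.999).

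The same comparison in WT mice gives the values for DCZ without Cre. None of the 8 members passed the test in WT (0.00762% of all genes called by edgeR, 1 gene), 1 was lower at an unadjusted p under 0.05 (3.74% of all genes), and DESeq2 and limma-voom each called 0. Log2 fold changes above 0 were seen in 2 of the 8 members, against 49.8% of all genes. Btg2 had 34.7 to 112 CPM (median 51.8) in WT DCZ libraries and 28.6 to 150.5 CPM (median 73.1) in WT saline libraries, with a log2 fold change of -0.29 ± 0.293 (adjusted p = 0.772). Zfp36 had 27.2 to 94.7 CPM (median 34.2) in WT DCZ libraries and 36.1 to 148 CPM (median 49.1) in WT saline libraries, and 4 of the 6 DCZ libraries lay below every saline library. Its log2 fold change was -0.54 ± 0.343 (adjusted p = 0.631).

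Gadd45b had 0.762 to 2.98 CPM (median 1.73) in WT DCZ libraries and 0.900 to 5.68 CPM (median 2.40) in WT saline libraries. The groups overlapped, with a log2 fold change of -0.65 ± 0.308 (adjusted p = 0.569). Gadd45g had 37.4 to 78.6 CPM (median 52.6) in WT DCZ libraries and 37.2 to 93.0 CPM (median 41.5) in WT saline libraries, and its log2 fold change was -0.05 ± 0.258 (adjusted p = 0.968). The other 4 members, Btg1, Zfp36l1, Zfp36l2 and Gadd45a, had log2 fold changes between -0.06 and 0.08.

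WT saline mouse 9 was the highest library of its group for 5 of the 8 members (Btg2, Zfp36, Gadd45a, Gadd45b and Gadd45g). Without it the WT log2 fold change was -0.07 for Btg2, -0.17 for Zfp36, -0.43 for Gadd45b and 0.20 for Gadd45g. WT DCZ mouse 3 was likewise highest for 5 members (Btg1, Btg2, Zfp36, Zfp36l1 and Gadd45a). Some signs differed with library order. Within library numbers 1 to 6 (5 DCZ, 1 saline) the difference in mean log2 CPM between DCZ and saline was 0.72 for Btg2, 0.23 for Zfp36 and 0.84 for Gadd45b, and within numbers 7 to 12 (1 DCZ, 5 saline) it was -0.73, -1.11 and -1.48 for the same genes. The signs ran the other way for Zfp36l2 (-0.53 within numbers 1 to 6 and 0.22 within 7 to 12) and Gadd45a (-0.11 and 0.38). Gadd45g (0.44 and 0.08) and Btg1 (0.04 and 0.19) were above 0 in both, and Zfp36l1 was near 0 in both (0.01 and -0.09). Each of these differences rests on a single library on 1 side, so they have no test.

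Whether the difference between DCZ and saline itself differed between Th-Cre and WT mice was read from the interaction term. No member passed it (0.00762% of all genes called by edgeR, 1 gene), while 5 of 8 were above 0 at an unadjusted p under 0.05, against 4% of all genes. DESeq2 called 1 member and limma-voom called 0. The interaction was above 0 for 7 of 8 members, against 50.4% of all genes. These member counts too are descriptions, given how the members were chosen. Among the 8 members Gadd45b had the largest interaction, a log2 value of 2.04 ± 0.445 (adjusted p = 0.147, rank 9), and DESeq2 gave 2.04 with an adjusted p of 0.00789. Btg2 stood at 1.69 ± 0.415 (adjusted p = 0.305), Zfp36 at 1.66 ± 0.486 (adjusted p = 0.487), Gadd45g at 1.33 ± 0.369 (adjusted p = 0.427) and Zfp36l1 at 0.40 ± 0.167 (adjusted p = 0.619). Without WT saline mouse 9 these values were 1.81 for Gadd45b, 1.45 for Btg2, 1.28 for Zfp36, 1.05 for Gadd45g and 0.39 for Zfp36l1. Btg1, Zfp36l2 and Gadd45a lay between -0.14 and 0.33.

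**Figure D2:**
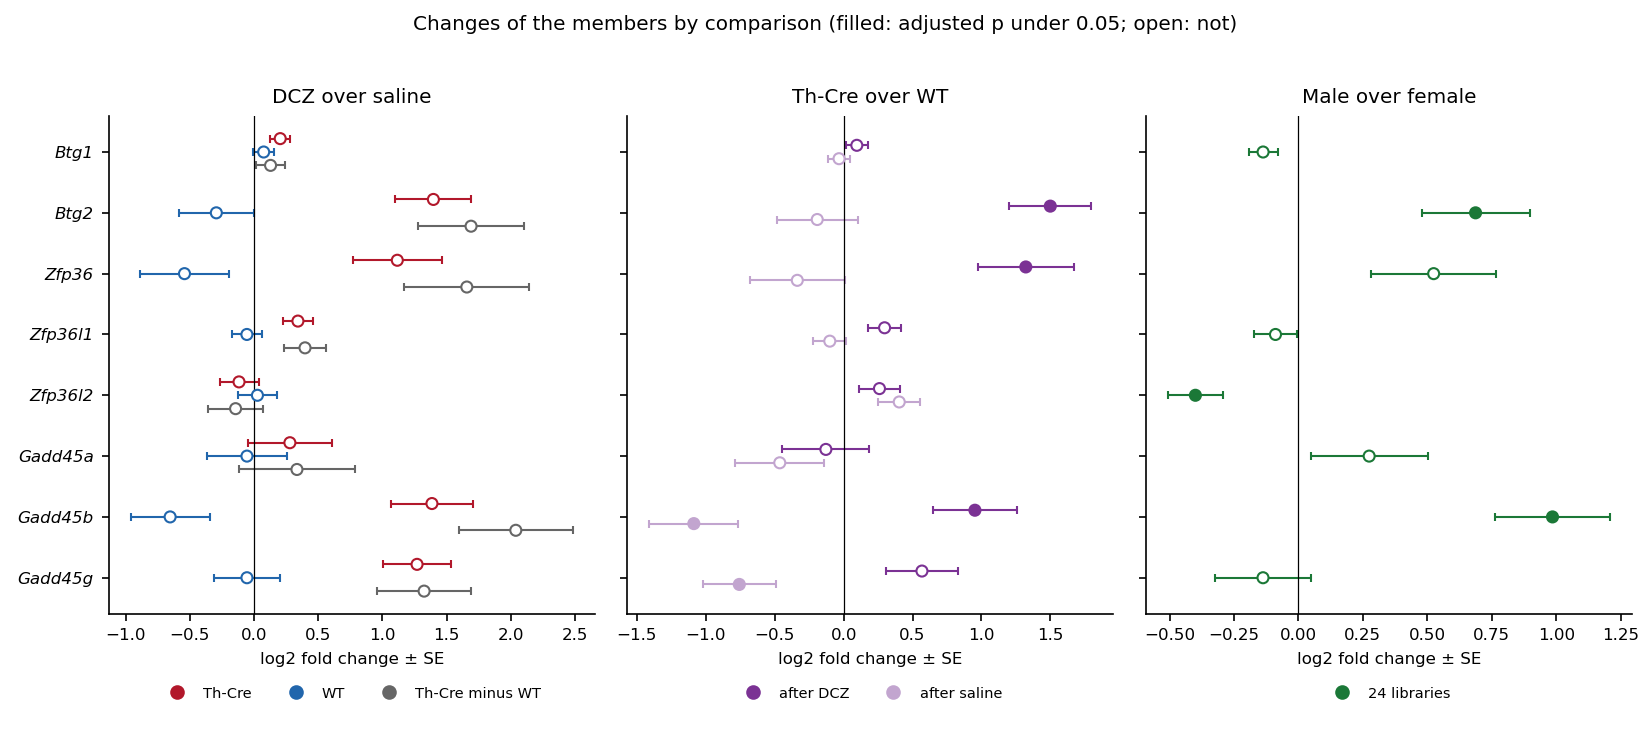
Log2 fold change ± SE of each member for DCZ over saline (left, with the difference between genotypes), Th-Cre over WT (middle) and male over female (right), filled where the adjusted p is under 0.05. Btg2, Zfp36, Gadd45b and Gadd45g lie between 1.12 and 1.40 for DCZ over saline in Th-Cre mice, all open, while the same genes are below 0 in WT mice.

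Th-Cre and WT mice were compared under each treatment, with genotype confounded with library order as above. Brown adipocyte, lymphocyte, endothelial and smooth muscle markers also had other summed levels in Th-Cre than in WT libraries, as given above, and their part in these calls was not tested. After DCZ, Btg2, Zfp36 and Gadd45b were higher in Th-Cre mice, 3 of the 8 members, where the test called 13.8% of all genes (6.75% higher and 7.02% lower). Btg2 averaged 159.7 ± 55.9 CPM in Th-Cre DCZ libraries and 61.3 ± 28.8 CPM in WT DCZ libraries (SD, n = 6 each), a log2 fold change of 1.5 ± 0.298 (adjusted p = 0.00337), and all 6 Th-Cre libraries were above the WT mean. Zfp36 averaged 106 ± 45.6 CPM in Th-Cre DCZ libraries and 44.0 ± 25.7 CPM in WT DCZ libraries, a log2 fold change of 1.32 ± 0.346 (adjusted p = 0.0155), again with all 6 above the WT mean. Both calls held when any 1 library was left out and in the fit without the 6 muscle-bearing libraries, but not in either sex alone (3 mice a group), where Btg2 stood at 0.95 in males (adjusted p = 0.111) and 1.99 in females (adjusted p = 0.0527), and Zfp36 at 0.99 in males (adjusted p = 0.245) and 1.68 in females (adjusted p = 0.12).

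Gadd45b averaged 3.25 ± 1.34 CPM in Th-Cre DCZ libraries and 1.73 ± 0.876 CPM in WT DCZ libraries, a log2 fold change of 0.95 ± 0.305 (adjusted p = 0.0396). Of the 6 Th-Cre libraries, 5 were above the WT mean. This call was lost without any 1 of WT DCZ mice 3, 4, 5, 6 and 10 and Th-Cre DCZ mice DN2072, DN2075 and DN2097 (adjusted p up to 0.111), without the 6 muscle-bearing libraries (0.79, adjusted p = 0.151), without the term for sex (0.90, adjusted p = 0.144) and with limma-voom (0.84, adjusted p = 0.0822). Zfp36l1 (0.30 ± 0.118, adjusted p = 0.0903, but 0.0219 without WT DCZ mouse 3 and 0.0471 without WT saline mouse 12) and Gadd45g (0.57 ± 0.26, adjusted p = 0.142) did not pass. For Zfp36l1 the adjusted p reached 0.229 with other single libraries left out, and it passed in 0 of 10 other settings (adjusted p up to 0.528). Btg1, Zfp36l2 and Gadd45a had log2 values of 0.10, 0.26 and -0.13.

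After saline, Gadd45b and Gadd45g were lower in Th-Cre mice, 2 of the 8 members, where the test called 24.9% of all genes (12.4% lower and 12.5% higher). Gadd45g averaged 32.9 ± 9.21 CPM in Th-Cre saline libraries and 55.4 ± 24.3 CPM in WT saline libraries, a log2 fold change of -0.76 ± 0.263 (adjusted p = 0.0377). All 6 Th-Cre libraries were below the WT mean, and 4 were below every WT library. Gadd45b averaged 1.20 ± 0.635 CPM in Th-Cre saline libraries and 2.75 ± 1.68 CPM in WT saline libraries, a log2 fold change of -1.09 ± 0.324 (adjusted p = 0.0174), with all 6 Th-Cre libraries below the WT mean. Both calls were lost without WT saline mouse 9 (Gadd45b -0.87, adjusted p = 0.0605, and Gadd45g -0.50, adjusted p = 0.152) and without the 6 muscle-bearing libraries (Gadd45b -1.43, adjusted p = 0.0615, and Gadd45g -0.97, adjusted p = 0.106). That of Gadd45g was also lost without WT saline mouse 8 (-0.63, adjusted p = 0.102) and without Th-Cre saline mice DN2094 (-0.71, adjusted p = 0.0715), DN2099 (-0.64, adjusted p = 0.0916) or DN2201 (-0.69, adjusted p = 0.0811).

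None of the 3 Zfp36 genes passed the edgeR test in this comparison. Zfp36l2 averaged 246 ± 39.4 CPM in Th-Cre saline libraries and 189.8 ± 60.7 CPM in WT saline libraries, a log2 fold change of 0.40 ± 0.152 (adjusted p = 0.0542), which passed under 4 other settings, RLE size factors (adjusted p = 0.0495), limma-voom (0.0498), no filter on low counts (0.0422) and DESeq2 (0.03). It also passed without any 1 of WT saline mice 2 and 12, WT DCZ mouse 5, Th-Cre saline mouse DN2086 and Th-Cre DCZ mouse DN2091 (adjusted p from 0.0216). Zfp36l2 did not pass in 6 of the 10 other settings (adjusted p up to 0.637, values from 0.19). Nor did it pass in 19 of the 24 fits without 1 library (adjusted p up to 0.147). The lowest value of those fits was 0.30, without WT saline mouse 8. Zfp36 and Zfp36l1 had log2 values of -0.34 ± 0.345 and -0.10 ± 0.118. Since the 2 genotype comparisons and the 2 DCZ comparisons are made from the same 4 groups, the DCZ values of Gadd45b and Gadd45g in Th-Cre mice share their saline libraries with the lower saline levels described here.

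Sex was balanced in every group and entered the model as a term. Gadd45b and Btg2 were higher in males and Zfp36l2 was lower, 3 of 8 members, where the test called 8.07% of all genes (3.95% higher and 4.11% lower in males). Gadd45b averaged 2.98 ± 1.46 CPM in 12 males and 1.49 ± 0.849 CPM in 12 females, and the male mean was higher in 4 of 4 groups. The log2 fold change was 0.99 ± 0.223 (adjusted p = 0.00732). In WT DCZ libraries males had 2.22 to 2.98 CPM and females 0.762 to 1.24 CPM. In WT saline libraries males had 2.63 to 5.68 CPM and females 0.900 to 2.16 CPM. The sexes did not overlap in either WT group, but each range rests on 3 mice. The share of all genes separated in this way was not computed. The sexes overlapped in both Th-Cre groups, and the difference between the genotypes was not tested.

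Btg2 averaged 106 ± 48.4 CPM in males and 74.7 ± 61.0 CPM in females, a log2 fold change of 0.69 ± 0.21 (adjusted p = 0.0431). The male mean was higher in 3 of 4 groups, and in Th-Cre DCZ mice it was 159 CPM, against 161 CPM in females. This call was lost without any 1 of 13 libraries (WT DCZ 3, 4, 5, 6 and 10, WT saline 2, 8, 9 and 11, Th-Cre DCZ DN2072 and DN2205, and Th-Cre saline DN2087 and DN2201), with values from 0.59 to 0.78 over all 24 fits and adjusted p up to 0.0908. Zfp36l2 averaged 187 ± 45.3 CPM in males and 244 ± 45.4 CPM in females, a log2 fold change of -0.40 ± 0.108 (adjusted p = 0.0224), with the male mean lower in 4 of 4 groups. Btg1, at 84.6 ± 9.75 CPM in males and 93.1 ± 8.69 CPM in females, was also below the female mean in 4 of 4 groups but did not pass (log2 fold change -0.14 ± 0.0562, adjusted p = 0.138). With single libraries left out its adjusted p ran from 0.0467, without WT DCZ mouse 3, to 0.228. Zfp36 stood at 0.52 ± 0.244 (adjusted p = 0.197).

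A difference between the sexes in the DCZ comparison was not detected for any member (edgeR, 0 of 8 in Th-Cre and 0 of 8 in WT, with 0 and 1 at an unadjusted p under 0.05, and 0 with DESeq2 and limma-voom). The term called 0% of all genes in each genotype, and an unadjusted p under 0.05 was reached by 6.88% of all genes in Th-Cre and 2.5% in WT mice. For Gadd45g the Th-Cre DCZ females, at 81.3 to 132 CPM, lay above the Th-Cre DCZ males, at 51.2 to 62.9 CPM, while the saline ranges of both sexes overlapped. These ranges rest on 3 mice each, and the share of all genes separated in this way was not computed. The male minus female difference in the log2 fold change with DCZ was -0.87 ± 0.486 for Gadd45g (adjusted p = 0.782).

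Within the Btg family the balance of the pair can be given as the share of Btg2 in the summed CPM of Btg1 and Btg2. It averaged 60.6% ± 11 in Th-Cre DCZ libraries, 42.2% ± 9.31 in Th-Cre saline libraries, 39.1% ± 10.7 in WT DCZ libraries and 44.0% ± 15.4 in WT saline libraries (SD, n = 6 each). Of the Th-Cre DCZ libraries, 4, at 65.7% to 70.5%, lay above every other library, and the other two, at 44.4% and 48.9%, did not. Zfp36 made up 26.5% ± 10.4 of the summed CPM of its 3 genes in Th-Cre DCZ libraries, 14.1% ± 5.28 in Th-Cre saline, 15.5% ± 7.76 in WT DCZ and 20.8% ± 10.5 in WT saline libraries, with wide overlap. Gadd45b stayed a minor share of its family, at 4.45% ± 2.54 in Th-Cre DCZ, 3.72% ± 2.80 in Th-Cre saline, 3.13% ± 1.91 in WT DCZ and 4.52% ± 2.04 in WT saline libraries. Since CPM is not per length, a share gives reads and not molecules.

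**Figure D3:**
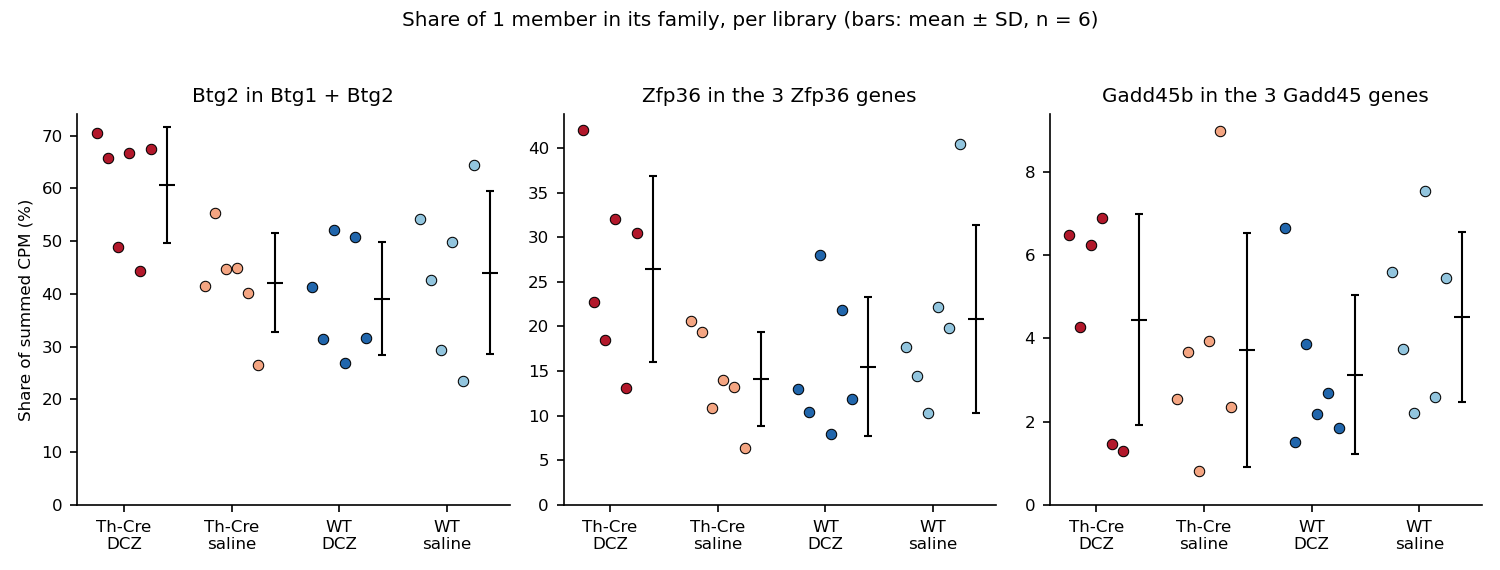
Share of Btg2, Zfp36 and Gadd45b in the summed CPM of their family in each library, in percent, with the group mean ± SD (n = 6). Btg2 averages 60.6% in Th-Cre DCZ libraries and between 39.1% and 44.0% in the other groups, while the share of Gadd45b overlaps in all 4 groups.

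Within groups, libraries that were high in Btg2 were also high in Zfp36. Deviations of log2 CPM from the group means were correlated over 24 libraries for all 28 pairs of members, with p from 100000 permutations within groups and Benjamini-Hochberg adjustment over the 28 pairs. Btg2 and Zfp36 gave the highest value, with Pearson r = 0.83 and Spearman rho = 0.80 (permutation p = 1e-05, the smallest the permutations can give, and 2e-05, adjusted 0.00028 and 0.00056). Without the 2 libraries farthest from the median of Btg2, r was 0.83, and r in the single groups of 6 ran from 0.75 to 0.94. Removing the mean of each sex in each group left r at 0.85 (adjusted permutation p = 0.00588).

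Btg1 and Zfp36l2 were the other pair past the threshold by Pearson r, at 0.67 with rho = 0.61 (permutation p = 0.00134 and 0.0037, adjusted 0.0188 and 0.0518). Without the 2 libraries farthest from the median of Btg1 r was 0.57, and with the means of each sex removed it was 0.52 (adjusted permutation p = 0.225). Gadd45b deviated against Zfp36l2, with r = -0.55 (adjusted permutation p = 0.0652), and that value was -0.17 once the mean of each sex in each group was removed. Gadd45b and Gadd45g are members of 1 family, and each had its highest group mean in Th-Cre DCZ libraries. Both of these means exceeded those of WT saline, the next group, by less than the pooled SD. The 2 genes had a pooled r of -0.08 (adjusted permutation p = 0.853). The single groups of 6 had opposite signs, with no test. For this pair r was -0.80 in Th-Cre DCZ, -0.56 in Th-Cre saline, 0.19 in WT DCZ and 0.62 in WT saline libraries.

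**Figure D4:**
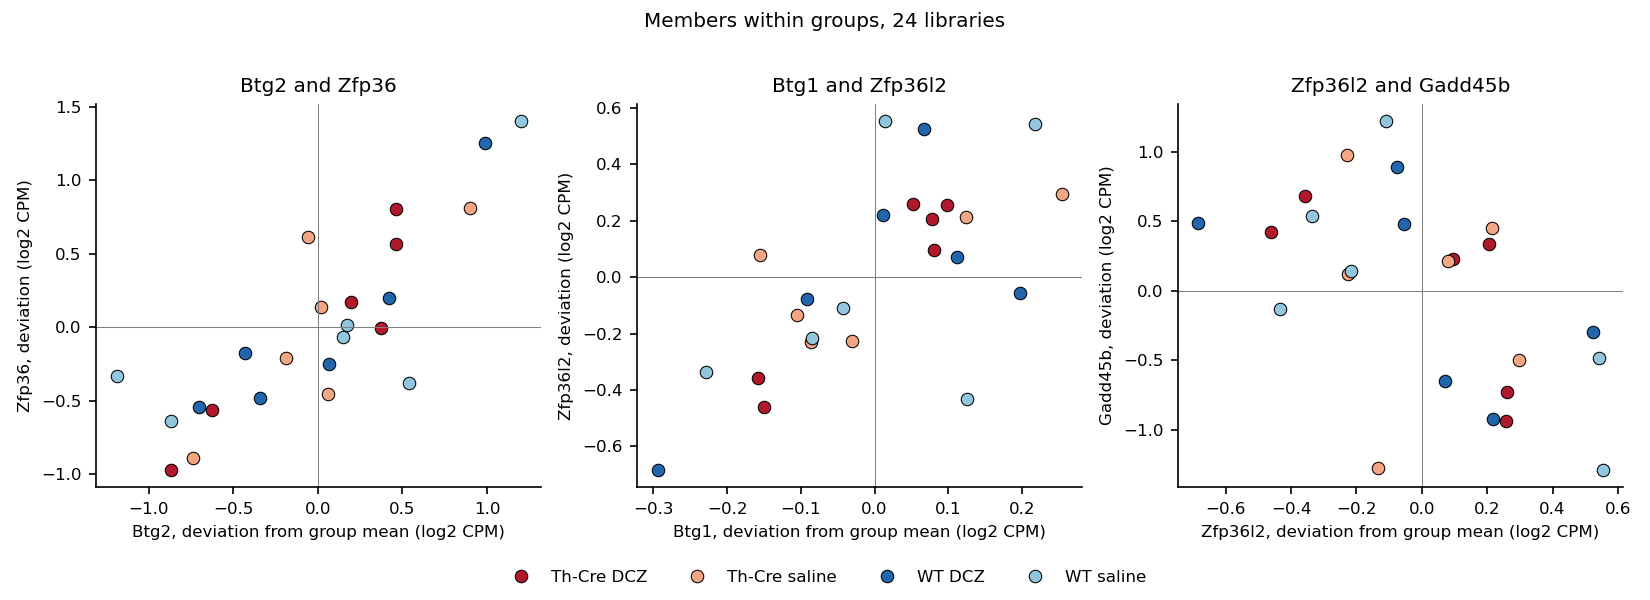
Deviations of log2 CPM from the group mean in the 24 libraries for Btg2 against Zfp36 (r = 0.83), Btg1 against Zfp36l2 (r = 0.67) and Zfp36l2 against Gadd45b (r = -0.55), 1 point per library, coloured by group. The Btg2 and Zfp36 points of all 4 groups lie along 1 rising band.

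Among 10913 genes outside the families with a mean log2 CPM of at least 1, those whose deviations were most like Btg2 were Junb (r = 0.95), Csrnp1 (r = 0.93) and Ier2 (r = 0.92) over the 24 libraries. For Zfp36 they were Egr1 (r = 0.91), Fos (r = 0.91) and Junb (r = 0.90). Gadd45b had another set, Prkab2 (r = 0.82), Srrm1 (r = 0.81) and Alg13 (r = 0.80), as did Gadd45g with Sdc4 (r = 0.78), Mtch1 (r = 0.78) and Alkbh6 (r = 0.76). Zfp36l2 was most like Crebl2 (r = 0.84), Tfdp1 (r = 0.79) and Sox4 (r = 0.79), and Zfp36l1 like Frmd4b (r = 0.77), Fcgr2b (r = 0.75) and Errfi1 (r = 0.73). Btg1 was most like Plekha3 (r = 0.75), Zfp217 (r = 0.74) and Tmcc1 (r = 0.73), and Gadd45a like Csf2ra (r = 0.76), Cxcl16 (r = 0.75) and Ppp1r15a (r = 0.72). These values are descriptions picked as the highest among many genes.

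Genes that work with the 3 families were read from 6 lists, chosen with earlier results of these data known. Some lists share genes, such as Plk3 among the ZFP36 and the p53 targets, so their counts are not independent. With DCZ in Th-Cre mice, in WT mice and in the interaction, 0 genes of any list passed with edgeR. Of the 29 tested genes of deadenylation and decapping, 5 were at an unadjusted p under 0.05 with DCZ in Th-Cre mice, against 5.67% of all genes. DESeq2 called 1 and limma-voom 0, and the median log2 fold change was 0.04, against 0.000475 over all genes tested. In WT mice and in the interaction 0 and 1 of these genes were at an unadjusted p under 0.05, against 8.66% and 7.46% of all genes. Both other tools called 0. The list gene with the smallest p was Pnrc1, a decapping coactivator, at 57.5 CPM in Th-Cre DCZ libraries and 43.5 CPM in Th-Cre saline libraries (log2 fold change 0.40 ± 0.0925, adjusted p = 0.136). Tob1, a BTG family relative, stood at 0.45 ± 0.149 (adjusted p = 0.587).

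Of 17 reported targets of ZFP36 tested, 12 had a log2 fold change above 0 with DCZ in Th-Cre mice (median 0.42, with 50.2% of all genes above 0) and 1 in WT mice (median -0.46, with 49.8% of all genes above 0). The interaction had a median of 0.85. At an unadjusted p under 0.05 there were 5 in Th-Cre mice (5.67% of all genes), 2 in WT mice (8.66% of all genes) and 7 in the interaction (7.46% of all genes), and DESeq2 called 1, 0 and 1 and limma-voom 0, 0 and 0. Plk3, a stress-responsive kinase, averaged 13.3 CPM in Th-Cre DCZ libraries and 6.62 CPM in Th-Cre saline libraries, with a log2 fold change of 1.06 ± 0.239 (adjusted p = 0.136). Fos, an AP-1 subunit, stood at 1.09 ± 0.434 (adjusted p = 0.73), and Cxcl1, a neutrophil chemokine, at 1.24 ± 0.504 (adjusted p = 0.736).

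The other 4 lists held 16 to 19 tested genes each. With DCZ in Th-Cre mice between 2 and 4 genes per list were at an unadjusted p under 0.05, against 5.67% of all genes. In WT mice there were between 1 and 3, against 8.66% of all genes, and in the interaction between 0 and 4, against 7.46%. DESeq2 called 2 p53 targets in Th-Cre mice, 1 in the interaction and 0 other genes of these 4 lists, and limma-voom called 0. These lists had medians between 0.02 and 0.08 with DCZ in Th-Cre mice and between -0.06 and 0.02 in WT mice. In the p53 list the smallest p with DCZ in Th-Cre mice was that of Plk3, the same gene given above as a ZFP36 target. Plk2 had a log2 fold change of 0.71 ± 0.183 in that comparison (adjusted p = 0.218). Among the GADD45 partners and stress kinases the value was 0.24 ± 0.0746 for Mapk8, which encodes JNK1 (adjusted p = 0.452). In the growth arrest list it stood at 0.44 ± 0.138 for Gas1 (adjusted p = 0.51), and Elavl1, which stabilises AU-rich mRNAs, stood at 0.14 ± 0.0591 (adjusted p = 0.797).

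Between the genotypes the test called 13.8% of all genes after DCZ and 24.9% after saline, and the counts in the lists are read beside these shares. Of the 29 deadenylation and decapping genes, 3 were higher and 0 lower in Th-Cre mice after DCZ (10.3%), and 4 were higher and 3 lower after saline (24.1%), near the shares of all genes. Tob1, whose protein binds the CCR4-NOT deadenylase as BTG proteins do, averaged 248 CPM in Th-Cre DCZ libraries and 120.4 CPM in WT DCZ libraries (log2 fold change 1.05 ± 0.15, adjusted p = 0.00022). After saline it averaged 181 CPM in Th-Cre libraries and 109.6 CPM in WT libraries (0.74 ± 0.15, adjusted p = 0.00228). Tob2, its paralogue, was higher after DCZ at 225 CPM in Th-Cre libraries and 153 CPM in WT libraries (0.56 ± 0.145, adjusted p = 0.0151). Of the 17 reported ZFP36 targets, 4 were higher and 2 lower after DCZ (35.3%), among them Fos, at 103 CPM in Th-Cre libraries and 31.0 CPM in WT libraries (1.85 ± 0.445, adjusted p = 0.0105), and Vegfa, which was lower at 388 CPM in Th-Cre libraries and 507 CPM in WT libraries (-0.39 ± 0.0798, adjusted p = 0.00427). After saline 1 of them was higher and 2 were lower (17.6%).

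Of 18 growth arrest genes, 5 were higher and 1 lower in Th-Cre mice after DCZ (33.3%, with 13.8% of all genes called), and 2 were higher and 2 lower after saline (22.2%, with 24.9% of all genes called). Gas1, a membrane protein that blocks entry into S phase, was higher at 59.2 CPM in Th-Cre DCZ libraries, against 37.1 CPM in WT DCZ libraries (0.68 ± 0.139, adjusted p = 0.00413). Rbl2, a retinoblastoma relative, was higher after saline at 61.1 CPM in Th-Cre libraries and 39.3 CPM in WT libraries (0.64 ± 0.112, adjusted p = 0.00126), and Cdkn1c, which encodes the CDK inhibitor p57, was lower at 26.8 CPM in Th-Cre libraries and 43.8 CPM in WT libraries (-0.71 ± 0.138, adjusted p = 0.00179). Of the 18 GADD45 partners and stress kinases 3 were higher and 0 lower after DCZ (16.7%), led by Map3k5 (0.41 ± 0.084, adjusted p = 0.00396), and 2 were higher and 3 lower after saline (27.8%), among them Tet2, a DNA demethylase, at -0.55 ± 0.137 (adjusted p = 0.00612). Of the 19 p53 targets 3 were higher and 1 lower after each treatment (21.1%), with Bax, an apoptosis effector, lower after both (-0.43 ± 0.13, adjusted p = 0.031 after DCZ, and -0.54 ± 0.129, adjusted p = 0.00521 after saline). Of 16 ARE-binding regulators 1 was higher after DCZ (6.25%) and 5 were higher and 2 lower after saline (43.8%). Khsrp, a decay-promoting factor, was the one after DCZ (0.31 ± 0.0842, adjusted p = 0.0188).

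Between the sexes, 3 of the 17 reported ZFP36 targets were higher and 1 lower in males (23.5%), where 3.95% of all genes were higher and 4.11% lower. Plk3 stood at 0.61 ± 0.169 (adjusted p = 0.0259), and Socs3, a feedback inhibitor of cytokine signalling, at 1.16 ± 0.35 (adjusted p = 0.0411). Among the GADD45 partners and stress kinases 2 of 18 passed (11.1%). Map2k6, an activator of p38, was higher in males (1.09 ± 0.213, adjusted p = 0.00229), as was Ccnb1 (1.13 ± 0.327, adjusted p = 0.0336). No deadenylation or growth arrest gene passed with edgeR, and DESeq2 called 0 and 1 and limma-voom 0 and 0. At an unadjusted p under 0.05 were 4 of 29 and 7 of 18. The share of all genes at that cut-off was not computed between the sexes, so these 2 counts are not read as a result.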

How the data were processed

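Whole iBAT RNA was sequenced in 24 libraries (4 groups of 6). The deposited table holds estimated counts per gene symbol as whole numbers, made with kallisto 0.44.0 against GRCm38.p6, per the submitters' processing notes. The transcript set, the summing to genes, the use of strand and the tool behind the normalized tables were not given in the sources used. The authors' normalized tables hold a signal, the count divided by 1 factor per library, made for each genotype separately, and served only as an alternative. A deposited summary gives read counts and the percent of reads pseudoaligned (84.2 to 88.7 percent). Library totals were 11.9 to 22.9 M estimated counts.

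Counts were fitted with edgeR 4.0.16 in R 4.3.3 (TMM factors 0.879 to 1.08, filter by group, quasi-likelihood test) on all 24 libraries with the 4 group means and sex, and p-values were Benjamini-Hochberg adjusted over 13129 genes. A model with separate means for each sex gave the difference between the sexes in the DCZ comparison. CPM used effective library sizes, and log2 CPM had a prior count of 2. The common biological coefficient of variation was 15.6%. Replicates are separate mice by their labels. The test was checked on simulated counts.

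Alternatives were RLE size factors, no filter, a stricter filter (at least 1 CPM in 12 libraries), DESeq2 1.42.0, limma-voom (limma 3.58.1), no term for sex, only the groups compared, no muscle-bearing libraries, each sex alone, the WT library-number split, the authors' normalized tables and leaving out each library. Python 3.11.15, numpy 2.4.6, pandas 2.3.3, scipy 1.17.1 and matplotlib 3.10.9 were used for the rest. Members, lists and the alternative without muscle-bearing libraries were chosen with earlier results of these data known. All 8 members are named in every comparison. From each list, genes past the threshold (up to 6, largest change first) or else the 3 with the smallest p could be named, and for likeness the 3 genes with the highest r.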

Additional observations from a re-analysis of the deposited data

Results flagged for a closer look

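In 6 of 32 sets of 6 libraries (8 members in 4 groups) 1 library lay farther from the rest than Dixon's 95% critical value allows. That value assumes normal and independent sets, while CPM was used without logs and the sets share libraries. The count therefore has no chance rate to be set against. WT saline mouse 9 had 148 CPM of Zfp36, with the next library at 56.7 CPM, and 5.75 CPM of Gadd45a, with the next at 2.84 CPM. WT DCZ mouse 3 had 94.7 CPM of Zfp36 (next 45.4 CPM) and 62.5 CPM of Zfp36l1 (next 46.6 CPM). Th-Cre saline mouse DN2087, with 92.1 CPM of summed muscle markers, had 112 CPM of Btg2 (next 62.4 CPM). WT saline mouse 12, with 279 CPM of summed muscle markers, had 70.5 CPM of Zfp36l1 (next 49.0 CPM). The part of muscle in these values was not tested.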

How the results depend on the processing

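Of 2111 alternative values of single members, 2035 had the sign of the reported value and 76 the other sign, and in 0 of these 76 was the reported or the alternative value past the threshold. Many of the 2111 leave out 1 library, which for a comparison of 2 groups can lie outside both. Such fits can hardly move the value (Btg2 with DCZ in Th-Cre mice 1.399 without WT DCZ mouse 1, against 1.398). The count of equal signs is therefore partly fixed in advance. A call was lost in 42 values and gained in 23. With DCZ in Th-Cre mice, where edgeR called 3 genes and 0 members, the calls were 20 genes (2 members) with no filter, 7 with the stricter filter, 40 (3 members) with DESeq2, 7 with limma-voom, 13 (1 member) with only the groups compared, 7 (1 member) without muscle-bearing libraries and 1 in males only. In WT mice, where edgeR called 1 gene, DESeq2 called 13 and 0 were called with no filter, limma-voom, no term for sex, only the groups compared, no muscle-bearing libraries, males only or females only. The interaction (1 gene, 0 members) had 8 genes with no filter, 16 (1 member) with DESeq2, 2 with no term for sex, 4 without muscle-bearing libraries and 0 in males or females only. Th-Cre against WT after saline (3270 genes, 2 members) had 109, 658 and 6 genes without muscle-bearing libraries, in males only and in females only, with 0 members in each. After DCZ (1808 genes, 3 members) these settings had 535, 735 and 30 genes, with 0 members in either sex alone, and only the groups compared had 1081 genes. The sex by DCZ terms (0 genes) had 5 genes with no filter, 23 with DESeq2 and 1 with only the groups compared in Th-Cre mice, and 1 with DESeq2 in WT mice. Of 2 member pairs past the threshold by Pearson r, Spearman rho kept 1. With the mean of each sex in each group removed the count was also 2, but Zfp36l1 and Gadd45a (r = 0.61, adjusted permutation p = 0.0276) took the place of Btg1 and Zfp36l2. Both of these settings were chosen after seeing the data.

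Leaving out single libraries gave 3 to 18 genes and 0 to 2 members with DCZ in Th-Cre mice (18 genes without DN2091), 0 to 39 genes in WT mice (39 without WT saline mouse 2) and 1 to 7 in the interaction. The genotype comparison had 2349 to 4270 genes and 0 to 3 members after saline, and 850 (without WT DCZ mouse 5) to 2443 genes and 2 to 4 members after DCZ. The sexes differed in 790 to 1162 genes and 2 to 3 members, and the sex by DCZ terms had 0 to 15 genes in Th-Cre mice (15 without DN2201) and 0 to 0 in WT mice. The causes were not tested. For the interaction, only the groups compared is the same fit and was not run again. No paired analysis was possible because the groups share no mouse numbers. Depth limits Gadd45a and Gadd45b most, with 18 to 85 and 5 to 84 reads per library.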
